A study of Mus musculus with 39 samples.

Results

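Binding of NOTCH and RBPJ near 8 genes for TALE homeodomain factors, Meis1, Meis2, Meis3, Pbx2, Pbx3, Pbx4, Pknox1 and Pknox2, was examined in radial glial cells (RGCs) and intermediate progenitor cells (IPCs) of the embryonic mouse cortex. Each peak went to whichever protein-coding gene had the closest start site on mm10. Of 20809 consensus peaks on the nuclear chromosomes, 60 were assigned to one of the 8 genes, and so were 87 of the 25453 peaks in the 4 separate lists. These genes were chosen by an earlier look at the same data, in which Meis2 stood among the genes with the most IPC Notch peaks. Peak numbers per gene are therefore given as a description, with no test.

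TALE homeodomain proteins carry an extra loop in the homeodomain. MEIS and PKNOX (also called PREP) proteins bind the core word TGACAG and form dimers with PBX proteins, and such complexes act as cofactors of other homeodomain factors, among them the HOX proteins. RBPJ is the DNA-binding protein of the Notch pathway and recognises the core TTCCCA. On activation, the Notch intracellular domain (NICD) is released from the membrane, joins RBPJ on DNA and turns on targets such as the Hes genes, which keep RGCs, the neural stem cells of the cortex, from differentiating.

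The samples were profiled by Targeted DamID (TaDa), where the bacterial Dam methylase, carried to its binding sites by a fused protein, leaves methyl groups on nearby GATC sequences. Plasmids were electroporated into wild-type MF1 embryos at E13.5 and the cortex was dissected at E14.5. A Hes5 promoter fragment (pHes5) drove expression in RGCs and a Tuba1a fragment (pTα1) in IPCs, so that the cell types are defined by these promoters within dissected tissue. The RBPJ fusion was human RBPJ1, in 3 samples per cell type. The RGC Notch group combined 2 samples of mouse NICD with 2 of mouse NdECD, a Notch without its extracellular domain, whereas all 4 IPC Notch samples carried NICD. The controls were 5 Dam-only samples in RGCs and 4 in IPCs. Within a cell type, the RBPJ and Notch lists share these controls and so are not independent of each other. All RBPJ and Notch fusions were expressed from plasmids in both cell types, so no list shows the cells' own protein. The paper describes the expression of Notch in IPCs as ectopic.

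The peak lists held 14097 RGC RBPJ, 3702 RGC Notch, 5497 IPC RBPJ and 2157 IPC Notch peaks on nuclear chromosomes. Each list pools the replicates of its group and gives only the position of a peak, without height, fold or q-value. Sequencing depth and the spread between replicates are thus unknown, and markers of the labelled cell types cannot be checked. Shares of peaks are given with Wilson 95% intervals and densities with exact Poisson 95% intervals. Both cover counting error over peaks only, and neighbouring peaks of 1 gene are not independent. Peaks are not replicates of a condition, and no test between conditions was possible.

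Sequence was printed for the members' consensus peaks called in the most lists, since at these places the calls of the cell types or proteins fall together. Of the 60 peaks, 5 were called in 3 or 4 lists (8.33%, 95% interval 3.61 to 18.1%), against 3.88% of all consensus peaks, 2 at Meis2 and 3 at Meis1. For each, the 200 bases of the GRCm38.p6 plus strand with the most TTCCCA and TGACAG words are shown. Capitals mark these words on either strand (TGGGAA and CTGTCA are the reverse complements).
Meis2, 3′ side of the gene, chr2:115861309-115861508: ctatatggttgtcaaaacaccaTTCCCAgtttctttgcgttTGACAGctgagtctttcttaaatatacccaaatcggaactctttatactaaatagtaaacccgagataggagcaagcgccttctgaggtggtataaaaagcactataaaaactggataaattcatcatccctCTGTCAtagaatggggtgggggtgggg
Meis2, distal upstream, chr2:116404844-116405043: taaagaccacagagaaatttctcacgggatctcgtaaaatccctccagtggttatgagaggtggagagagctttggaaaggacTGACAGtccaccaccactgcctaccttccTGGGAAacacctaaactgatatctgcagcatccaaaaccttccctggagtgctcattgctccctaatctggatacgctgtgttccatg
Meis1, 3′ side of the gene, chr11:18871502-18871701: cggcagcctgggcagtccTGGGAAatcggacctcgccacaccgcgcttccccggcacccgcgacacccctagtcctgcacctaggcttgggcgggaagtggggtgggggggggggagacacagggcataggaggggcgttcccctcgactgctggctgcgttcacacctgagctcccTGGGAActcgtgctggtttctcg
Meis1, intron, chr11:18916029-18916228: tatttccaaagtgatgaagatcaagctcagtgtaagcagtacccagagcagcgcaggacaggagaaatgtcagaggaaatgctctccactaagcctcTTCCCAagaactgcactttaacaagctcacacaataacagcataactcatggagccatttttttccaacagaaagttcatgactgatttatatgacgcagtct
Meis1, intron nearer to the start, chr11:18989053-18989252: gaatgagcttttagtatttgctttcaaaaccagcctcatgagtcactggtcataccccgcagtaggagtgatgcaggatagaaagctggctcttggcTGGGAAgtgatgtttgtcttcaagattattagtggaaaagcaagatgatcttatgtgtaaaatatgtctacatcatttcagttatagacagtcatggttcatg
The Meis2 window on the 3′ side held 1 TTCCCA and 2 TGACAG words and lay inside peaks of RGC RBPJ and IPC Notch. In the distal upstream Meis2 window, 1 word of each kind lay inside the peaks of RGC RBPJ and RGC Notch, and the IPC Notch peak began beyond them. The Meis1 windows held TTCCCA words only, 2 on the 3′ side of the gene and 1 in each intron window, and these words lay inside an RGC RBPJ peak in all 3 windows, together with RGC Notch in the first and second and with IPC RBPJ in the last.

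Meis2 had 23 consensus peaks and Meis1 had 19, Pbx3 7, Pknox2 6, Pknox1 3 and Pbx4 2. No peak was assigned to Meis3 or Pbx2. The Meis1 number rests on distant peaks and on leaving out non-coding genes, since it was 10 within 100 kb of a start site, 6 over the gene body and 2 with the nearest of all annotated genes, and in the last setting the 8 genes had 27 peaks in place of 60. The Meis2 number was 20, 17 and 19 in the same settings. Its count within 100 kb also takes in peaks near non-coding start sites at the 3′ end of Meis2. Meis1 has no annotated start site at its 3′ end, so the 100 kb counts do not compare distances from the 5′ ends. Thus 6 of the 8 genes had at least 1 consensus peak, against 39.7% of the 21938 protein-coding genes. By list, 6 of 8 had a peak of RBPJ in RGCs (31.7% of all genes) and 5 had one in IPCs (16.4%), while 5 had a peak of Notch in RGCs (11.7%) and 4 had one in IPCs (6.97%). Genes with much sequence around them collect more peaks, which is taken up with the peaks per Mb.

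**Figure D1:**
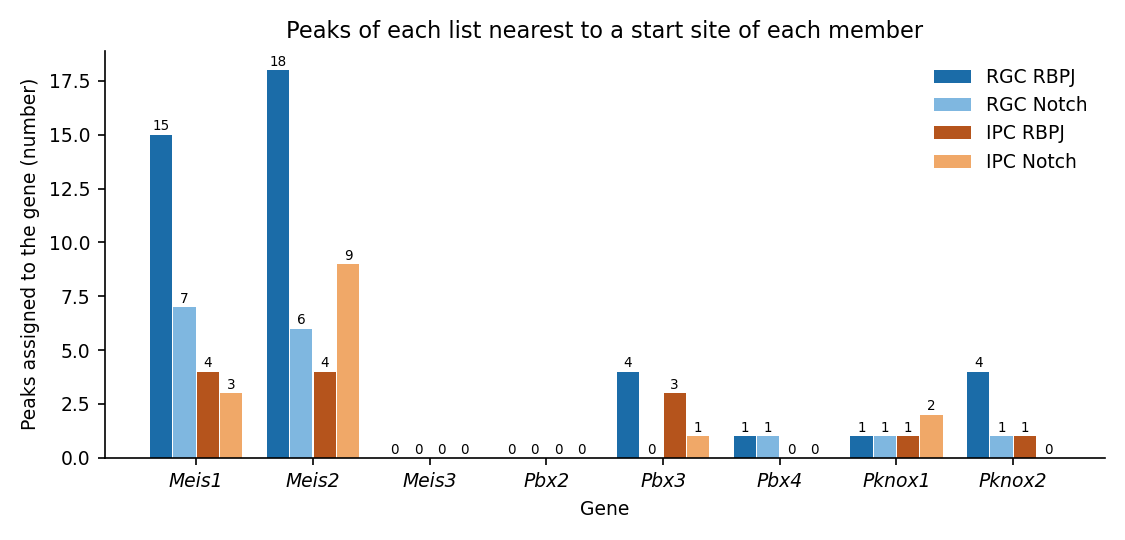
Number of peaks (vertical axis) of each of the 4 lists assigned to each of the 8 genes (horizontal axis); bars show pooled lists, so there are no error bars. Meis2 has 9 IPC Notch peaks and 6 RGC Notch peaks, whereas Meis1 has 3 and 7, and Meis3 and Pbx2 have 0 in every list.

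The balance of the lists differed among the genes by count. At Meis2, 18 RGC RBPJ, 6 RGC Notch, 4 IPC RBPJ and 9 IPC Notch peaks were assigned. At Meis1 the numbers in the same order were 15, 7, 4 and 3. Meis2 thus had more Notch peaks in IPCs than in RGCs although the IPC list is the shorter of the Notch lists, and Meis1 had fewer. Some Notch peaks of Meis2 lie in the same consensus peak, and by consensus peak its numbers were 7 in IPCs and 5 in RGCs. The Notch groups also differed in their fusions, and the part of this was not tested. Among all genes, only 1 had more IPC Notch peaks than Meis2, and 25 had more RGC Notch peaks. Meis1 stood in place 13 for RGC Notch and in place 69 for IPC Notch. These places were part of what selected the genes.

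Meis2, which in the forebrain is known for its part in neuronal differentiation, lies on the minus strand of chromosome 2 at 115863064-116065839 (ENSMUSG00000027210), with 16 annotated start sites. Its peaks crowded onto the gene itself. Of the 23 consensus peaks, 17 overlapped the gene body, and consensus peaks covered 27.1% of its 202776 bp, against 1.71% of the genome. The genome figure includes sequence outside genes, and Meis2 was chosen with its peaks known. Cover was 13.0% of the gene body at Meis1 and ran from 3.74% at Pknox2 to 11.3% at Pbx4 for the other members with peaks. By midpoint, 16 of the 23 peaks lay inside Meis2, 15 of them in introns and 1 over an exon. The midpoint of 1 further peak, called in RGC Notch alone and assigned to cluster 6, fell in an intron of BC052040, the next protein-coding gene on that side, whose start site lies 287.1 kb away from the nearest of Meis2.

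**Figure D2:**
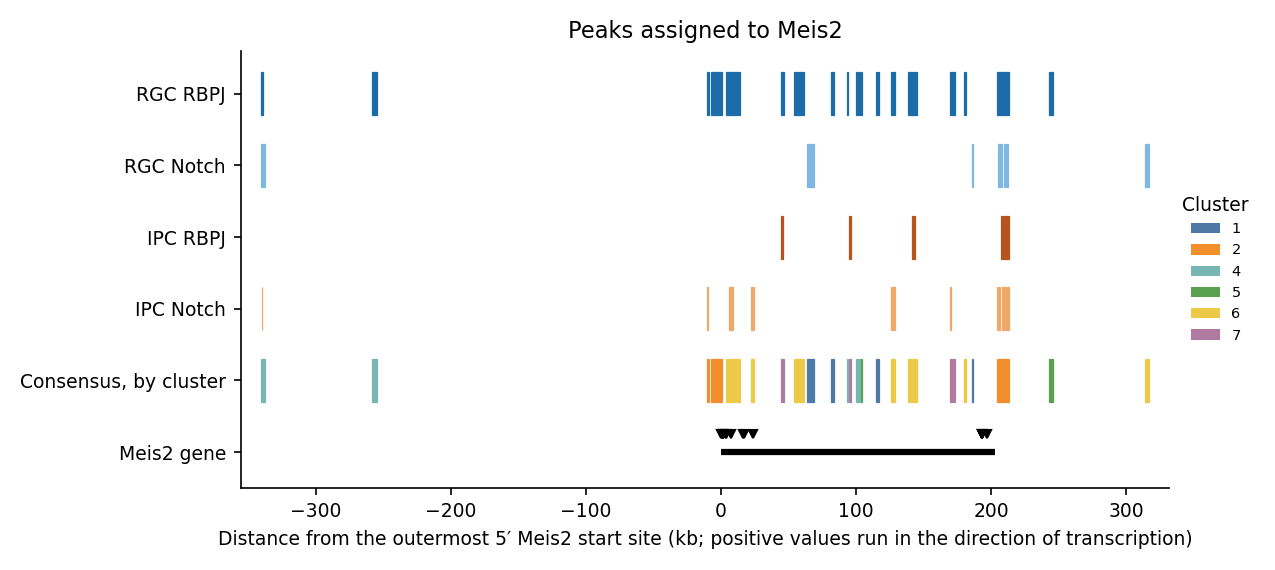
Peaks assigned to Meis2 along the locus (horizontal axis, kb from the outermost 5′ start site in the direction of transcription); rows show the 4 lists, the consensus peaks coloured by cluster, and the gene with its start sites as triangles. Most peaks lie between the 5′ end and the 3′ end of the gene, and 2 lie far upstream, at 254.8 and 337.8 kb.

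At the 5′ end of Meis2, broad peaks flanked the start sites of the protein-coding transcripts. A peak of 8189 bp at chr2:116065050-116073238 (cluster 2, RGC RBPJ) covered the outermost start site at 116065839. The widest peak assigned to any of the 8 genes, 10286 bp at chr2:116051802-116062087 (cluster 6), lay on a non-coding start site within the gene. Its RGC RBPJ peak spanned the whole region and its IPC Notch peak 2465 bp of it. Another peak, chr2:116041595-116043711 (cluster 6), was called in IPC Notch alone and covered another non-coding start site. The start sites at 116064512, 116064721 and 116065047, also of protein-coding transcripts, fell in the gap between the first of these peaks and the second.

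The Meis2 peak called in all 4 lists lay beyond the 3′ end of the gene, at chr2:115852668-115861938 (9271 bp, cluster 2), 6.93 kb from the closest annotated start site, which belongs to a non-coding transcript. Only 0.678% of all consensus peaks were called in 4 lists. Within it, the RGC RBPJ peak was unbroken over 9234 bp and the IPC RBPJ peak measured 6193 bp. The Notch calls were split into 2 peaks in RGCs (2768 and 3103 bp) and 3 in IPCs (1648, 3042 and 2650 bp). All bases of the RGC Notch peaks were shared with the RGC RBPJ peak, and 63.8% of the IPC Notch bases were shared with the IPC RBPJ peak.

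The farthest Meis2 peak, chr2:116403677-116406765 (cluster 4), stood 337.8 kb upstream and was called in RGC RBPJ, RGC Notch and IPC Notch. Between it and the gene, a single peak of 4019 bp was called in RGC RBPJ alone, 254.8 kb upstream. The next protein-coding start site on this side, that of Tmco5, lies 812.9 kb from Meis2.

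Consensus peaks with an IPC Notch peak numbered 7 of 23 at Meis2 (30.4%, 15.6 to 50.9%), against 10.1% of all consensus peaks. At Meis1 the number was 3 of 19 (15.8%, 5.52 to 37.6%) and at the other 6 genes 3 of 18 (16.7%, 5.84 to 39.2%). Since these peaks helped to select Meis2, nothing is read from the order of the shares. Among the 7 Meis2 peaks with IPC Notch, 6 were also called in RGC RBPJ, 2 in RGC Notch and 1 in IPC RBPJ. Of all consensus peaks with an IPC Notch peak, 53.7% were also called in RGC RBPJ, 23.5% in RGC Notch and 23.4% in IPC RBPJ. Widths of the 9 IPC Notch peaks of Meis2 ran from 572 to 3042 bp with a median of 2117 bp, against 1284 bp over the whole list, and the 3 at Meis1 measured 292, 538 and 2394 bp.

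RGC RBPJ was called in 18 of 23 Meis2 peaks (78.3%, 58.1 to 90.3%), in 14 of 19 Meis1 peaks (73.7%, 51.2 to 88.2%) and in 67.6% of all consensus peaks. For RGC Notch the numbers were 5 of 23 at Meis2 (21.7%, 9.66 to 41.9%) and 7 of 19 at Meis1 (36.8%, 19.1 to 59%), against 17.7%. IPC RBPJ was called in 4 peaks of each gene, which is 17.4% (6.98 to 37.1%) at Meis2 and 21.1% (8.51 to 43.3%) at Meis1, against 26.2%. The intervals of the RBPJ shares of both genes included the background, and the Notch places of the genes were among the values behind their choice.

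Both proteins were called in RGCs in 7 of the 60 peaks (11.7%, 5.77 to 22.2%), against 7.77% of all consensus peaks. They comprised 5 of 19 at Meis1 (26.3%, 11.8 to 48.8%), 2 of 23 at Meis2 (8.70%, 2.42 to 26.8%) and 0 of 18 at the other 6 genes (upper bound 17.6%). Both were called in IPCs in 3 of 60 (5.0%, 1.71 to 13.7%), 1 each at Meis1, Meis2 and Pknox1, against 2.36%. Over the 60 peaks, the interval of either share included its background.

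The clusters were made by the authors from the binding intensity of both proteins in both cell types, and a peak can belong to a cluster without a call in each list. In cluster 6, for example, 64.2% of all peaks were called in RGC RBPJ and 48.3% in IPC Notch, but 19.7% in RGC Notch and 11.0% in IPC RBPJ. Of the 23 Meis2 peaks, 7 belonged to cluster 6 (30.4%, 15.6 to 50.9%), against 10.8% of all consensus peaks, and 6 of these 7 lay within the gene. Cluster 4 held 4, cluster 1 held 4, clusters 2 and 7 held 3 each and cluster 5 held 2. None of the 23 belonged to cluster 3, in which 96.7% of all peaks were called in IPC RBPJ and which held 16.3% of all consensus peaks. None belonged to cluster 8, in which 99.4% were called in RGC RBPJ and which held 14.4%. The upper bound of either share at Meis2 is 14.3%. IPC Notch was called in only 2.16% of all cluster 3 peaks and 0.0666% of all cluster 8 peaks. Since IPC Notch peaks helped to select Meis2, nothing is read from its shares of clusters 6, 3 and 8.

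**Figure D3:**
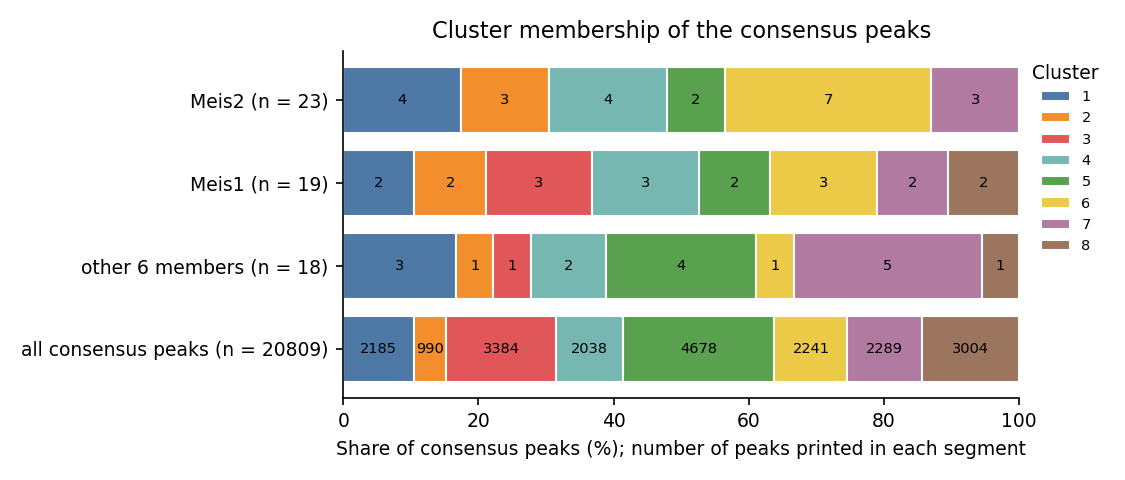
Share of consensus peaks (horizontal axis, %) in each of the 8 clusters for Meis2, Meis1, the other 6 genes together and all consensus peaks, with the number of peaks in each segment. Clusters 3 and 8 are empty for Meis2 and hold 3 and 2 of the 19 Meis1 peaks.

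Meis1, a gene best known for its role with HOX proteins in blood stem cells and leukaemia, lies on the minus strand of chromosome 11 at 18879817-19018985 (ENSMUSG00000020160). Its peaks were spread over a wider stretch than those of Meis2. Of its 19 consensus peaks, of which 2 remained when non-coding genes were also considered, 6 overlapped the gene body and 9 lay over 100 kb from a start site (47.4%, 27.3 to 68.3%), against 3 of 23 at Meis2 (13.0%, 4.54 to 32.1%) and 22.7% of all consensus peaks. The shares of the 2 genes do not compare distances from the 5′ end. Meis2 has non-coding start sites near its 3′ end, at 115868867 to 115872962, whereas all Meis1 start sites lie at 19012002 to 19018985. For example, the Meis2 peak 6.93 kb from a start site lies at least 203.9 kb from the outermost 5′ one. The farthest Meis1 peak, chr11:18581604-18583196 (cluster 3, IPC RBPJ), stood 428.8 kb from a start site, beyond the 3′ end of the gene. The neighbouring protein-coding start sites are far away, those of Etaa1 at 1058 kb and of Spred2 at 905.4 kb.

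**Figure D4:**
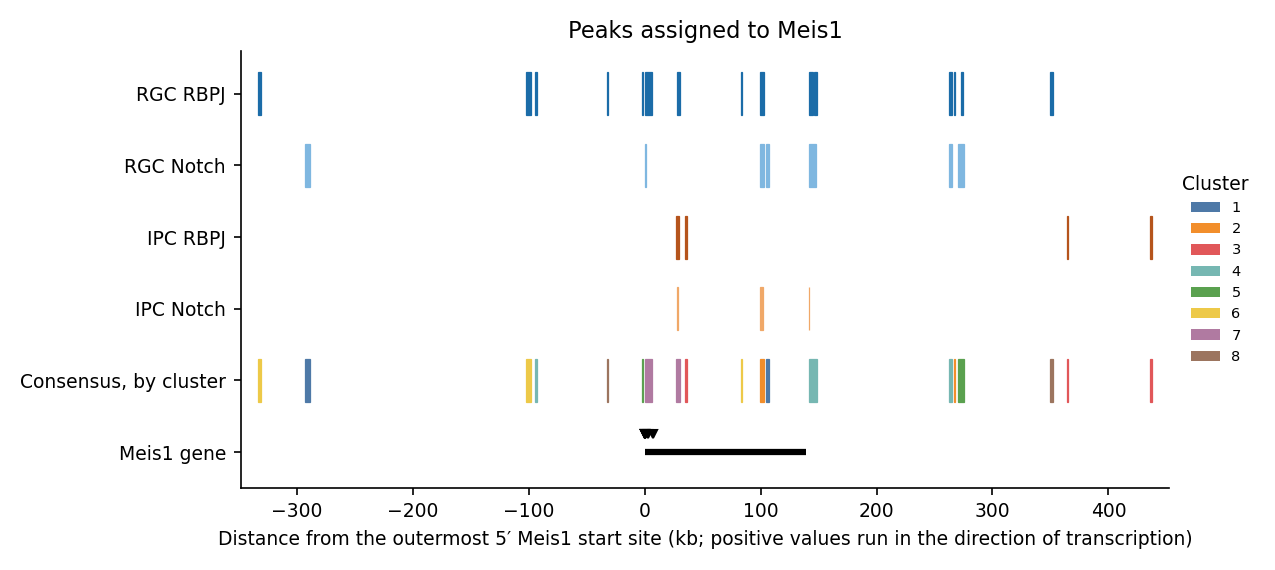
Peaks assigned to Meis1 along the locus, drawn as for Meis2 (horizontal axis, kb from the outermost 5′ start site in the direction of transcription). RGC Notch peaks lie at the 5′ end, in the gene, beyond its 3′ end and far upstream, whereas the 3 IPC Notch peaks lie in or just beyond the gene.

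The Meis1 peaks called in 3 lists all stood in the gene or just beyond it. On the 3′ side, chr11:18870411-18877533 (7123 bp, cluster 4, the widest of this gene) held 2 RGC RBPJ peaks of 2206 and 3996 bp, an RGC Notch peak of 6713 bp and an IPC Notch peak of 292 bp at one end. In an intron, chr11:18915969-18919210 (cluster 2) was called over the identical 3242 bp in RGC RBPJ and RGC Notch, and IPC Notch covered 2394 bp of it. A second intronic peak, chr11:18988809-18991577 (cluster 7), was called in RGC RBPJ, IPC RBPJ and IPC Notch. A cluster 1 peak called in RGC Notch alone lay close to the first intronic peak, at chr11:18911408-18914045.

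At the Meis1 start, the peak chr11:19012194-19018906 (6713 bp, cluster 7) covered 2 annotated start sites, of which the one at 19018714 belongs to a protein-coding transcript. The RGC RBPJ peak spanned 6688 bp and the RGC Notch peak the last 960 bp, where 97.4% of the Notch bases were shared with RBPJ. No IPC peak was called here. A small RGC RBPJ peak of 930 bp (cluster 5) followed 1.66 kb upstream of the outermost start site.

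Peaks of Meis1 fell into all 8 clusters, with 3 each in clusters 3, 4 and 6 and 2 in each of the others. Its 3 cluster 3 peaks were called in IPC RBPJ alone, as are most peaks of that cluster, and included both of the peaks farthest on the 3′ side. The cosine similarity of the cluster counts was 0.82 between Meis1 and Meis2. Over the 276 genes with at least 10 consensus peaks, those most like Meis2 were Msi2 (an RNA-binding Musashi protein, 25 peaks, 0.97), Pou3f3 (a POU-domain factor of the developing cortex, 29 peaks, 0.96) and Fggy (13 peaks, 0.94). Those most like Meis1 were Tenm4 (a teneurin, 28 peaks, 0.96), Sipa1l2 (11 peaks, 0.96) and Cachd1 (10 peaks, 0.94). Measured against Meis2, 35 genes came before Meis1, so by this measure the paralogues did not stand out as a pair.

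Clusters 2, 4, 6 and 7 are those with signal of both proteins in at least 1 cell type. They held 17 of 23 Meis2 peaks (73.9%, 53.5 to 87.5%), 10 of 19 Meis1 peaks (52.6%, 31.7 to 72.7%) and 9 of 18 peaks of the other 6 genes (95% interval 29.0 to 71.0%). Over all consensus peaks the share was 36.3%. For the 60 peaks together it was 60.0% (47.4 to 71.4%). Calls of both proteins were rarer, in 7 of the 60 in RGCs and 3 in IPCs. Since Notch peaks were among the values behind the choice of genes, nothing is read from these cluster shares.

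Pbx3, a gene active in the hindbrain and other parts of the nervous system, had 7 consensus peaks, 5 of them in its introns by midpoint. They comprised 4 RGC RBPJ, 3 IPC RBPJ and 1 IPC Notch peak, and no RGC Notch peak. The peak on a start site, chr2:34287417-34290081 (cluster 5, RGC RBPJ), covered an internal non-coding start, and no peak covered the starts of its protein-coding transcripts. The single IPC Notch peak, chr2:34224457-34225792 (cluster 6), stood alone in an intron, 63.1 kb from a start site. Clusters 7 and 5 held 3 and 2 of the 7 peaks. Mapkap1, which encodes an mTORC2 subunit, starts 33.6 kb away on the 5′ side and had 5 peaks. On the other side, the start of Mvb12b (an ESCRT-I subunit, 7 peaks) is 400.9 kb away.

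At Pbx4, which is known for expression in the testis, both consensus peaks lay on or in the gene. The first, chr8:69831869-69834178 (2310 bp, cluster 4), was called in RGC Notch alone and covered 6 annotated start sites. The second, chr8:69839953-69842780 (cluster 5), was called in RGC RBPJ alone. Neither was called in an IPC list, which 33.9% of all consensus peaks were.

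Pknox1 (PREP1), on chromosome 17, carried 3 peaks within 1.45 kb of a start site but none on one. Upstream of the gene, chr17:31561376-31564223 (cluster 1, RGC Notch) ended 0.511 kb before the first start site. Downstream of it, chr17:31565399-31566706 (cluster 2) was called in IPC RBPJ and IPC Notch, where 67.2% of the 792 Notch bases were shared with RBPJ. The last, chr17:31579583-31582090 (cluster 7), held an RGC RBPJ peak of 2508 bp and an IPC Notch peak of 328 bp. RGC Notch and IPC Notch were thus called on opposite sides of this start, and not at the same place.

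Pknox2 (PREP2), on chromosome 9, had 6 consensus peaks, 5 of them inside the gene. Each was called in 1 list, as were 82.9% of all consensus peaks. RGC RBPJ accounted for 4, RGC Notch for 1 and IPC RBPJ for 1. The RGC Notch peak, chr9:37062890-37066789 (3900 bp, cluster 1), was the widest of the gene. The IPC RBPJ peak, chr9:37143707-37145271 (cluster 7), was the nearest to a start site, at 0.389 kb. No IPC Notch peak was assigned to Pknox2.

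Meis3 and Pbx2 had no peak. The sequence nearest to their start sites measured 0.0414 Mb at Meis3, close to the median of 0.0451 Mb over all genes, and 0.00591 Mb at Pbx2. With 0 peaks in these lengths, densities of up to 89.0 and 623.9 per Mb remain possible.

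The RefSeq promoters, 250 bases before to 50 after a start on GRCm38.p6, were available for 5 of the 8 genes, Meis1, Meis2, Meis3, Pbx2 and Pbx4. That of Pbx4 lay wholly within a consensus peak, the one called in RGC Notch. The Meis2 promoter was 181 bp and the Meis1 promoter 14 bp away from the nearest consensus peak, whereas those of Pbx2 and Meis3 were 3057 and 25815 bp away. The part of the Pbx4 promoter before its first annotated start is shown, since it is the promoter that a peak covers, with capitals for the GATC site.
Pbx4 promoter, chr8:69832374-69832490: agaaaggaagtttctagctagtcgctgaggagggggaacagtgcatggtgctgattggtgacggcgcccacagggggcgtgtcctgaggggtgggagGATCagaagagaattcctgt
The Pbx4 promoter held neither TTCCCA nor TGACAG on either strand, nor TGATTGAC (bound by PBX with a partner) nor the homeobox core TAATTA. The RBPJ word occurred once in the Meis1 promoter and in none of the other 4. Of all 32851 RefSeq promoters of this length, 25.6% held TTCCCA, 19.2% TGACAG, 0.770% TGATTGAC, 5.29% TAATTA and 48.0% GATC.

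Of the 60 peaks, 6 covered an annotated start site of their gene (95% interval of the share 4.66 to 20.1%), against 16.6% of all consensus peaks covering a start site. They comprised 3 at Meis2 and 1 each at Meis1, Pbx3 and Pbx4. A start of a protein-coding transcript was covered at Meis1, Meis2 and Pbx4 only. The RGC Notch list covered such a start at Meis1 and Pbx4, the RGC RBPJ list at Meis1 and Meis2, and neither IPC list at any of the 8 genes.

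Relative to the sequence nearest to their start sites, all members with peaks held more consensus peaks per Mb than the genome, Meis1 the fewest of them. The members were chosen with their peaks known, so these densities are a description. At Meis2, 0.747 Mb held 30.8 consensus peaks per Mb (19.5 to 46.2). At Meis1, 0.989 Mb held 19.2 per Mb (11.6 to 30.0). The genome held 7.63 per Mb, and the median over the 5957 genes with at least 100 kb of nearest sequence was 6.41 per Mb. In that order Meis2 took place 208 and Meis1 place 762, while by number of peaks they took places 19 and 36 among all genes. Pbx3 held 23.2 per Mb (9.33 to 47.8, place 515) and Pknox2 24.1 per Mb (8.85 to 52.5, place 470), both ahead of Meis1. These intervals overlap those of the Meis genes. Pknox1 and Pbx4 had under 100 kb of nearest sequence, with 47.3 (9.76 to 138.3) and 40.4 per Mb (4.90 to 146.1). The Pbx4 interval includes the genome value.

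**Figure D5:**
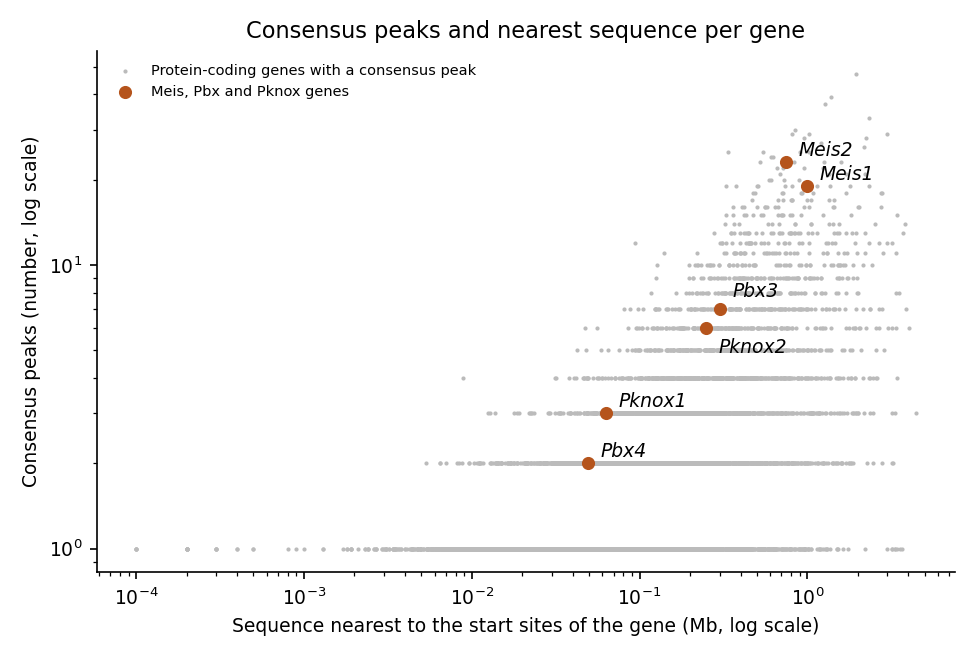
Consensus peaks per protein-coding gene (vertical axis, log scale) against the sequence nearest to its start sites (horizontal axis, Mb, log scale), for genes with at least 1 peak; each grey point is a gene and the 6 marked genes are members. Meis2 and Meis1 stand near the upper edge at 0.747 and 0.989 Mb, and the 4 other members lie at lower numbers of peaks and shorter lengths.

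The consensus peaks of the Meis genes, which merge the lists, had a higher median width than all consensus peaks. The median width was 2799 bp at Meis2 and 2638 bp at Meis1, against 1717 bp at the other 6 genes and 1890 bp over all consensus peaks. Peaks of at least 5 kb, a limit set after the widths had been seen, numbered 6 of 23 at Meis2 (26.1%, 12.5 to 46.5%) and 3 of 19 at Meis1 (15.8%, 5.52 to 37.6%). No peak of the other 6 genes reached it (0 of 18, upper bound 17.6%), and 5.19% of all consensus peaks did. In the order RGC RBPJ, RGC Notch, IPC RBPJ and IPC Notch, median widths over the whole single lists were 2059, 2389, 1398 and 1284 bp. Those of Meis2 were 2745, 2926, 2204 and 2117 bp. Those of Meis1 were 2206, 3242, 1532 and 538 bp, so its IPC Notch peaks were narrower than the list. In the RGC RBPJ list, the 18 Meis2 peaks added up to 72518 bp and the 15 Meis1 peaks to 36845 bp. In the RGC Notch list the order was the other way round, with 17362 bp at Meis2 and 26437 bp at Meis1, and in the IPC Notch list the sums were 17731 and 3224 bp.

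A Dam fusion can mark only GATC sites, and 2 of the 60 peaks held none (3.33%, 0.919 to 11.4%), against 9.76% of all consensus peaks. Both were cluster 3 peaks called in IPC RBPJ alone, chr11:18982411-18983882 in an intron of Meis1 and chr2:34105022-34106885 beyond the 3′ end of Pbx3. All 23 Meis2 peaks held a GATC site. The peaks of the 8 genes held 3.07 GATC sites per kb (2.81 to 3.34), and all consensus peaks 2.91 per kb. Their median GC content was 43.4%, against 45.3% over all consensus peaks.

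Over whole peaks, the words for RBPJ and for TALE factors stood near the level of all consensus peaks. TTCCCA occurred at 1.06 per kb (0.916 to 1.23) in the peaks of the 8 genes and at 1.17 per kb in all consensus peaks, counted on both strands. By gene, the density was 1.09 per kb (0.876 to 1.33) at Meis2 and 0.994 (0.747 to 1.30) at Meis1. At least 1 such word was held by 49 of 60 peaks (81.7%, 70.1 to 89.4%), against 82.9%. In the central 500 bp alone, the density of this word was 0.733 per kb (0.460 to 1.11) in the peaks of the 8 genes and 1.18 per kb in all consensus peaks. Head-to-head pairs, TGGGAA followed by TTCCCA after 15 to 17 bases, as Notch dimers can use, were found in 0 of 60 peaks (upper bound 6.02%), and in 0.231% of all consensus peaks. TGACAG occurred at 0.707 per kb (0.588 to 0.844) in the peaks of the 8 genes and at 0.771 per kb over all. At least 1 copy was held by 42 of 60 (70.0%, 57.5 to 80.1%), against 71.5%.

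The rarer word TGATTGAC was found in 4 of 60 peaks (6.67%, 2.62 to 15.9%), against 5.32%. These were 2 peaks of Meis2, among them the one over its outermost start site with 2 copies, the start site peak of Meis1, and a peak beyond the 3′ end of Pbx3. TAATTA differed more, with 40 of 60 peaks (66.7%, 54.1 to 77.3%) against 45.7% of all consensus peaks. Per kb the difference was smaller, at 0.448 (0.354 to 0.560) against 0.358, with an interval that just includes the latter. The members' peaks were wider (median 2215 bp) and lower in GC, and the part of either in this share was not tested.

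For comparison, the 9 further TALE genes Tgif1, Tgif2, Irx1 to Irx6 and Mkx had 29 consensus peaks in all, from 1 to 7 per gene with a median of 3. The 8 Meis, Pbx and Pknox genes ranged from 0 to 23 with a median of 4.5. The most were at Irx3 (7), Irx1 (5) and Tgif1 (4, tied with Irx2), the first a patterning gene of the Iroquois family like the second. Between them the 9 genes had 2 IPC Notch peaks, at Tgif1 and Irx3, and 1 RGC Notch peak, at Irx3. Notch peaks were thus fewer over these 9 genes than at Meis1 or at Meis2 alone. Since Notch peaks helped to select the members, nothing is read from this order. The nearest sequence also differed, from 0.0451 Mb at Tgif2 to 0.896 Mb at Irx1, against 0.747 Mb at Meis2 and 0.989 Mb at Meis1.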

How the data were processed

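The authors trimmed the reads, mapped them to mm10 and ran MACS2 in its broad mode on each fusion sample with each Dam-only control. Only peaks that passed an FDR filter and recurred in every such pair of a condition were retained. They deposited 4 pooled lists of peak positions in bp and 1 file of merged consensus peaks with cluster numbers. No height, score or column of a single sample (0 columns) was used, so depth is unknown. Of 39 samples, 14 lie behind the lists, 9 are their Dam-only controls, and 16 were not used here.

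Positions were read on GRCm38.p6 with the GENCODE vM21 annotation and counted from 1. Mitochondrial peaks were not counted. Each peak went to the protein-coding gene whose annotated start site was closest, ties to every tied gene. Overlap was counted from 1 bp, and calls of consensus peaks matched the lists at all peaks. Features were read at the midpoint. Words were counted on both strands. Analyses used Python 3.11.15, numpy 2.4.6, scipy 1.17.1, pysam 0.24.0 and matplotlib 3.10.9. Nearest start sites matched a direct search at 300 of 300 simulated regions, and planted pairs were found in 200 of 200.

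The members, gene lists and words were chosen with earlier results of these data known. Named besides members were 3 further TALE genes with the most peaks, genes hosting a peak, neighbours of Meis1, Meis2 and Pbx3, and the 3 genes with the most similar cluster counts among those with at least 10 peaks. Single peaks named were those on start sites, in 3 or 4 lists, widest, nearest or farthest, and others were picked after their values were seen.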

Additional observations from a re-analysis of the deposited data

How the results depend on the processing

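Of 63 recalculated values, 54 stayed within 1.5 times the count or within the interval of the share or density, and 9 did not. With the nearest of all annotated genes, non-coding ones included, 27 peaks were assigned to the 8 genes instead of 60, and 2 to Meis1 instead of 19, while Meis2 had 19. Within 100 kb of a start site Meis1 had 10 peaks. Counting peaks that overlap the gene body gave 37 for the 8 genes, 6 for Meis1 and 4 IPC Notch peaks for Meis2. TTCCCA fell to 0.733 per kb in the central 500 bp of the peaks, where all consensus peaks held 1.18 per kb, and the cause was not tested. The 7-base words TTCCCAC and TGACAGC, rarer by construction, occurred at 0.253 and 0.167 per kb. Over all consensus peaks these stood at 0.270 and 0.188 per kb. A stricter score could not be tried, as no score is held in the lists. No paired analysis was possible because the lists pool their replicates, and for the same reason no replicate could be left out.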
